A study of Mus musculus with 12 samples.

Results

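Early opened regions kept to iPSC are stretches of mouse chromatin that carried an accessibility interval at every sampled point after the fibroblast start and none in the fibroblasts. They were chosen from the deposited interval lists: a region of the common set counted if it overlapped an interval of the Stage 1, the Stage 2 and the iPSC list by at least 1 bp and no interval of the MEF list. Of 115000 regions, 6746 (5.87%) met this rule and are called members here. For comparison, 12677 regions lay in all 4 lists, 3091 in the Stage 2 and iPSC lists only (late opened regions), and 3814 in the Stage 1 and Stage 2 lists only.

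Accessibility was measured by ATAC-seq after the published method of Buenrostro and colleagues, which uses the Tn5 transposase to tag open DNA with adapters. The 4 groups were mouse embryonic fibroblasts (MEF, unsorted), Stage 1 cells at day 6 of reprogramming, Stage 2 cells at day 6 plus 4 further days, and established induced pluripotent stem cells (iPSC), with 3 libraries each. All came from a mixed C57BL/6 x 129 background, and the Stage 1, Stage 2 and iPSC cells had been sorted as Oct4-GFP+, that is, positive for a green fluorescent reporter of the Pou5f1 product. Reprogramming is labelled as 3c enhanced, and neither the meaning of 3c nor the origin of the replicates (animals, cultures or clones) was given in the sources used here. The cells were sequenced in bulk, so a site open in fewer cells and a site less open in each cell cannot be told apart.

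During reprogramming, fibroblast enhancers lose accessibility while enhancers and promoters of the pluripotency network gain it. That network is held by transcription factors such as Oct4, Sox2, Nanog, Esrrb and the Klf family, which bind many distal elements together. Oct4 and Sox2 bind side by side on a composite DNA element made of an octamer and a Sox half-site, Klf and Sp factors bind GC-rich boxes, and the microRNAs of the miR-290 and miR-302 clusters mark pluripotent cells in the mouse.

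The promoters below are those of members in which a motif search gave a match. Apart from that of Pipox their genes represent the network or the epithelial programme, and they are shown because the members' accessibility sits on them. Each is the 250 bases before the gene start (RefSeq, GRCm38.p6, which is mm10), written 5′ to 3′ on the gene's strand. Capitals in the Nanog and Pipox sequences mark a short Oct-Sox element on its reverse strand. The element was searched as TTGT, 1 free base and ATGCAAA, which on the other strand reads TTTGCAT, 1 free base and ACAA. Nanog is a homeodomain factor of the network, and Pipox codes for a peroxisomal oxidase. The Nanog window is chr6:122707239-122707488 on the plus strand, with the match starting at -75 from the gene start, and the Pipox window is chr11:77893873-77894122 on the minus strand, with the match at -194.
Nanog: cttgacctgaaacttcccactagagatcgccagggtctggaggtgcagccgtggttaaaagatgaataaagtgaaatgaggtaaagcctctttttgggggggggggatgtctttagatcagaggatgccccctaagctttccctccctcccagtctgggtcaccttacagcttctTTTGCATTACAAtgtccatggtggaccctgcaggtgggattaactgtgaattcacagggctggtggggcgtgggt
Pipox: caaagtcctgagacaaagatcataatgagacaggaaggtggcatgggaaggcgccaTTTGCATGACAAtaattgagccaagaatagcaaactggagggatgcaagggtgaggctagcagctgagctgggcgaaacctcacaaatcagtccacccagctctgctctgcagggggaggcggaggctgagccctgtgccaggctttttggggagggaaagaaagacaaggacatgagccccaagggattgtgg

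Zfp42, also known as Rex1, is a zinc finger gene widely used as a marker of pluripotent cells. Its window is chr8:43307010-43307259 on the minus strand, and the capitals mark the octamer ATGCAAAT on the reverse strand, starting at -186.
Zfp42: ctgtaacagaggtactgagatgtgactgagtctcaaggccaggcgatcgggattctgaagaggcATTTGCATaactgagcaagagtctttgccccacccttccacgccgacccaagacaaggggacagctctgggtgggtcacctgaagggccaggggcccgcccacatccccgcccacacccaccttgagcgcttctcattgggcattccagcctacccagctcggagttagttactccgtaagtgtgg

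L1td1, which codes for an RNA-binding protein of pluripotent cells, and Cldn3, which codes for the tight junction protein claudin-3, carry a Klf/Sp box (GGGNGTGG). The L1td1 window is chr4:98726504-98726753 on the plus strand with the box at -132. In the Cldn3 window, chr5:134985964-134986213 on the plus strand, boxes on the reverse strand start at -206 and at -200 and overlap, and the capitals cover both.
L1td1: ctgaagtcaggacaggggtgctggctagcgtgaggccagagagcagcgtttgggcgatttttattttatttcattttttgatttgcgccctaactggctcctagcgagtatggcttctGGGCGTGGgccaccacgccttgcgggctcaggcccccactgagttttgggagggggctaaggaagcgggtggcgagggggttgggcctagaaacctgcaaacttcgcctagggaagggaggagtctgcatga
Cldn3: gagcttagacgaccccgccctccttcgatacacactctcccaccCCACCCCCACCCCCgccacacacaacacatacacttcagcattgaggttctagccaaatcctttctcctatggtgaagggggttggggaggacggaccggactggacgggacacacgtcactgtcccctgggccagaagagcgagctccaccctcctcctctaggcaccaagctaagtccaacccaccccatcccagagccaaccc

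All positions are on mm10, and levels are given as CPM, read counts scaled to the reads inside regions with TMM factors. Libraries held 14310290 to 32229388 reads, of which 1034936 to 6261903 fell in regions. The share in regions was 11.3 to 22.1% in MEF, 7.36 to 8.12% at Stage 1, 5.31 to 6.91% at Stage 2 and 4.49 to 5.25% in iPSC, and every comparison of levels below is relative to the reads inside regions. As a check of the labels, CPM summed over all regions linked to 36 pluripotency genes came to 1126 to 1208 in MEF, 3815 to 4282 at Stage 1, 4085 to 4721 at Stage 2 and 3104 to 3529 in iPSC. Over regions linked to 30 mesenchymal and fibroblast genes it was 2135 to 2457 in MEF and 1252 to 1431 in the 9 later libraries. The rise was not limited to pluripotency genes. Neural ectoderm genes had 432 to 484 in MEF and 906 to 1187 later, and epithelial genes 1202 to 1285 and 1788 to 2342. Trophectoderm (558 to 618 and 806 to 963), mesoderm (434 to 443 and 543 to 662) and blood and endothelium (531 to 599 and 732 to 816) rose too. Primitive endoderm fell (1090 to 1262 and 777 to 931).

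The rule itself sets the contrast with MEF, so these values describe the members and support nothing. The median member had 1.08 CPM in MEF, 16.6 at Stage 1, 17.4 at Stage 2 and 15.4 in iPSC. In 6699 members every later library lay above every MEF library, in 47 at least 1 did not, and 3 members had no read in MEF. Of 6742 members that passed the filter on low counts, edgeR's quasi-likelihood test called 6735 higher at Stage 1 than in MEF (background: 49.5% of all tested regions), 6737 higher at Stage 2 (48.6%) and 6734 higher in iPSC (46.1%), and 0 lower (background 32.5, 33.5 and 34% in the same order). The other 4 members were too low to be tested. Median log2 fold changes of the members were 4.00, 4.08 and 3.90 in that order. All tested regions had medians of 0.54, 0.46 and 0.35, and the medians of the members with libraries scaled to all their reads were 2.81, 2.59 and 2.20.

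MEF chromatin at the members lay close to the level of the uncounted genome. Set against the read density outside regions, members held 0.991 to 1.38 times the expected reads in the MEF libraries, 5.87 to 6.97 times at Stage 1, 4.26 to 6.42 times at Stage 2 and 3.36 to 4.32 times in iPSC. At least 2 times the expected reads were found at 1075 members (15.9%) in MEF, against 6731 at Stage 1, 6712 at Stage 2 and 6556 in iPSC. The lists are thresholds on such signals, and members near the border showed it. The 27 members that ended 50 bp from a MEF interval had a median of 2.02 CPM in MEF and 16.6 at Stage 1, and the 8 regions just outside the rule, with at most 100 bp in a MEF interval and in all 4 lists, had 4.02 and 16.4 CPM. The median member lay 8700 bp from the nearest MEF interval.

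Members took up 0.818 to 1.30% of the reads inside regions in the MEF libraries and between 11.98 and 14.5% in every later library. The mean share was 12.96% ± 0.486 at Stage 1, 13.6% ± 0.887 at Stage 2 and 12.5% ± 0.553 in iPSC (SD, n = 3 each), and the 3 groups overlapped. Two-sided exact permutation tests over libraries gave p = 0.4 between Stage 2 and Stage 1, 0.2 between iPSC and Stage 2 and 0.5 between iPSC and Stage 1, each 0.5 after adjustment over the 3 pairs. The smallest p that 3 libraries against 3 allow is 0.1. Subtracting the background estimated outside regions turned the direction of 2 of these differences: the share then was 15.1 to 16.3% at Stage 1, 17.8 to 18.6% at Stage 2 and 17.9 to 18.5% in iPSC.

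**Figure D1:**
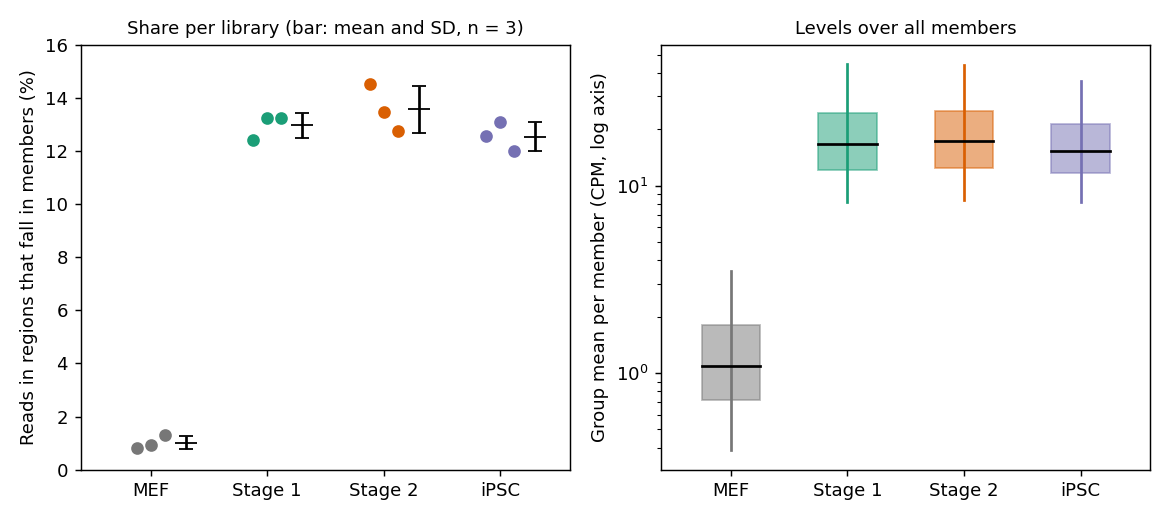
Left, percent of the reads inside regions that fall in the 6746 members, one point per library with the mean and SD of 3 libraries per group. Right, the distribution of group mean CPM over members on a log axis, drawn from the 25th to the 75th percentile with the median. MEF libraries sit at 0.818 to 1.30% and all 9 later libraries at 11.98 to 14.5%, and the median is 1.08 CPM in MEF, 16.6 at Stage 1, 17.4 at Stage 2 and 15.4 in iPSC.

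Among the later groups the 3 group means lay within a 1.5-fold range in 3390 members (50.3%) and within a 2-fold range in 5740 (85.1%). These ranges, and the counts of the highest mean below, were not taken for other regions and so do not set members apart. None of the 3 comparisons among later groups called 4985 of the tested members (73.9%), against 78.6% of all tested regions and 71.7% of regions of all 4 lists. Stage 1 held the highest of the 3 means in 2757 members, Stage 2 in 2621 and iPSC in 1368. The same libraries made the lists, and the rule asks for an interval at each later point, so members lost or gained after Stage 1 were kept out by the rule.

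Between Stage 1 and Stage 2, edgeR called 547 members higher at Stage 2 (8.11%, background 4.94%) and 428 lower (6.35%, background 5.43%), with a median log2 fold change of 0.02 for members and 0.01 for all tested regions. iPSC against Stage 2 gave 21 members higher (0.311%, background 0.404%) and 284 lower (4.21%, background 1.80%), with medians of -0.16 and -0.04. In iPSC against Stage 1, 340 members were higher (5.04%, background 5.91%) and 875 lower (12.98%, background 10.9%), with medians of -0.13 and -0.02. The comparisons share libraries and are not independent.

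The split between higher and lower calls depended on the scaling. With libraries scaled to all their reads, 65 members were higher and 436 lower at Stage 2 than at Stage 1 (background 1.55 and 6.31%), 1 and 95 in iPSC against Stage 2 (0.038 and 0.857%), and 31 and 1788 in iPSC against Stage 1 (1.58 and 22.2%). With TMM factors taken from the tested regions only, an alternative chosen after seeing the data, the counts were 718 and 333 (background 6.14 and 4.3%), 34 and 177 (0.545 and 1.06%), and 558 and 574 (8.55 and 6.98%) in the same order. The member medians moved to -0.28, -0.36 and -0.62 with whole-library scaling, and to 0.10, -0.08 and 0.04 with TMM on the tested regions. The medians of all tested regions moved with them, to -0.29, -0.24 and -0.52 and to 0.09, 0.04 and 0.15. Single libraries moved the counts too. Without Stage 2 replicate 1, 256 members were higher and 436 lower at Stage 2 than at Stage 1. In iPSC against Stage 2 its removal left 4 higher and 45 lower, the fewest lower calls with any 1 library left out. The first comparison also moved without other libraries, to 337 higher and 188 lower without Stage 1 replicate 3. DESeq2 called 294 and 173 members, 7 and 100, and 231 and 446 (background 2.42 and 2.19%, 0.152 and 1.17%, and 3.33 and 5.35%).

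**Figure D2:**
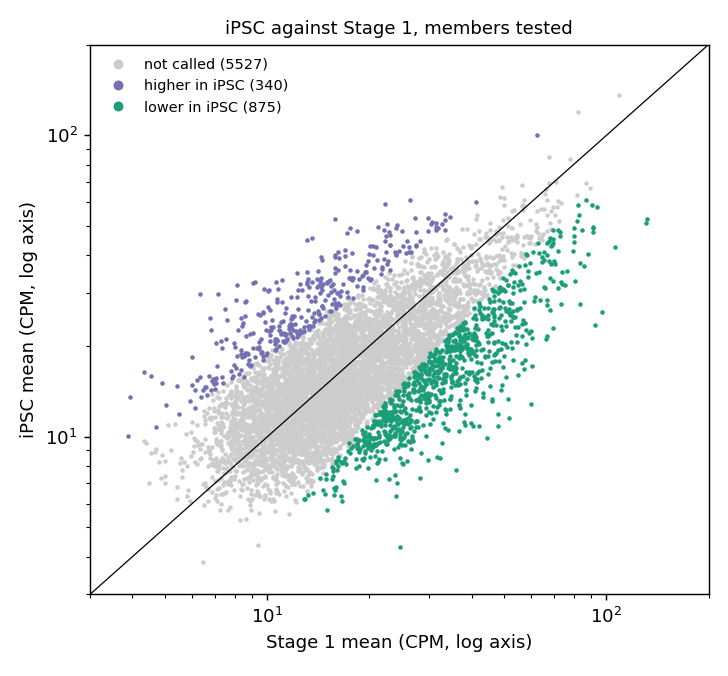
Mean CPM of each tested member at Stage 1 (x) and iPSC (y), both on log axes, with the line of equality. Points are coloured by the edgeR call of iPSC against Stage 1: 340 members higher in iPSC, 875 lower, and the rest not called.

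Regions with other histories were set beside the members in the same libraries. In regions of all 4 lists 147 were higher and 3014 lower in iPSC than at Stage 1 (1.16 and 23.8% of those tested). The shares were 5.04 and 12.98% for members and 5.91 and 10.9% for all tested regions. The median log2 fold change was -0.34, against -0.13 for members. Read density at members over that at regions of all 4 lists was 0.768 ± 0.0463 at Stage 1, 0.882 ± 0.0272 at Stage 2 and 0.871 ± 0.0194 in iPSC (SD, n = 3 each). Stage 1 libraries overlapped none of the Stage 2 or iPSC libraries in this ratio, and the exact permutation tests gave p = 0.1 (0.15 adjusted over the 3 pairs) for each of these pairs, the smallest possible, and p = 0.6 for iPSC against Stage 2. Of late opened regions 1261 (41.9%) were higher and 0 lower in iPSC than at Stage 1. Of regions in the Stage 1 and Stage 2 lists only, 2 (0.0536%) were higher and 1012 (27.1%) lower. The lists themselves set these directions.

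Members were mostly distal. Only 505 (7.49%) lay within 1 kb of the start of a protein-coding gene, against 68.7% of regions of all 4 lists, 7.02% of late opened regions and 13.9% of all regions. The median distance was 28.3 kb for members, 35.6 kb for late opened regions and 27.1 kb for all regions, and 2482 members (36.8%) lay beyond 50 kb. Their median width was 650 bp, against 800 bp for regions of all 4 lists. A gene's span or the 10 kb on either side of it held 4202 members (62.3%), and these links state position only. Among the autosomes, the percent of a chromosome's regions that were members ran from 3.83% on chromosome 19 to 7.03% on chromosome 1.

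**Figure D3:**
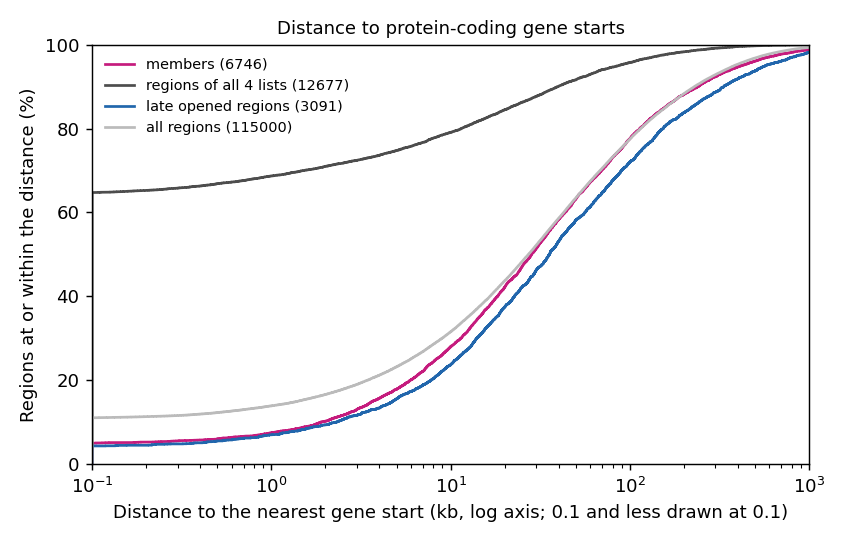
Cumulative percent of regions (y) at or within a distance to the nearest protein-coding gene start (x, kb, log axis), for members, regions of all 4 lists, late opened regions and all regions. At 1 kb the curve of members stands at 7.49% and that of regions of all 4 lists at 68.7%.

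Calls among the later groups were counted apart for members near and far from gene starts. Near a start, 26 of 505 were higher and 33 lower at Stage 2 than at Stage 1 (5.15 and 6.53%), 3 and 10 in iPSC against Stage 2 (0.594 and 1.98%), and 16 and 60 in iPSC against Stage 1 (3.17 and 11.9%). These shares lay near those of all tested regions (4.94 and 5.43%, 0.404 and 1.80%, and 5.91 and 10.9%). Farther away, of 6237 tested, the counts were 521 and 395 (8.35 and 6.33%), 18 and 274 (0.289 and 4.39%), and 324 and 815 (5.19 and 13.1%). The density of near members over far members was 1.049 ± 0.0167 at Stage 1, 0.994 ± 0.0259 at Stage 2 and 1.065 ± 0.00666 in iPSC (SD, n = 3 each). Stage 2 overlapped neither other group, with an exact permutation p of 0.1 (0.15 adjusted over the 3 pairs) against each, and iPSC against Stage 1 gave 0.3. The difference of iPSC minus Stage 1 was 0.0159, and it turned to -0.0316 (exact permutation p = 0.1) when near meant within 5 kb. In MEF the ratio was 1.59 to 2.33, and near members had a median of 2.11 CPM there against 1.04 for the others.

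In promoter sequence, the medians of members stood between those of regions of all 4 lists and those of all windows. A window from 250 bases before to 50 after a gene start lay with at least 150 bp inside a member in 420 cases (386 genes). Their median GC content was 57% and their CpG ratio (observed over expected) 0.45, against 63% and 0.81 for 9336 windows in regions of all 4 lists, 59.7% and 0.45 for 135 windows in late opened regions, and 52.7% and 0.38 for all 32817 windows. A CpG ratio under 0.6 was found in 68.1% of member windows and 17.3% of windows in regions of all 4 lists. This share was 65.9% in late opened regions, 68.8% in regions of the MEF list alone and 64.2% of all windows. Both strands were searched for each motif, and a match is a string of letters and not a binding site.

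The octamer ATGCAAAT occurred in 20 of the 420 member windows (4.76%), against 1.59% in regions of all 4 lists, 0 of 135 in late opened regions and 1.74% of all windows. The genes behind these matches included Zfp42, Elf3 (an epithelial transcription factor), Sox1 (a neural Sox factor), Neurog1 (a neurogenic factor), Pipox, Gpm6a, Liph, Mageb16 and Prrg4. The rest were at Platr21, Zfp345 and genes with Gm names. Among these Gm33301 had more than 1 window in the same member, so the windows are not all separate members. The short Oct-Sox element, which shares letters with the octamer, was found in 3 member windows (0.714%) and in 12 of all windows (0.0366%). Nanog and Pipox, printed above, are 2 of the 3. GGGNGTGG, the Klf/Sp box, occurred in 27.9% of member windows, 24.8% in regions of all 4 lists and 17.6% of all windows. The AP-1 motif TGANTCA was in 7.62% of member windows, near the 7.81% of all windows. It was in 3.61% in regions of all 4 lists and 20.5% of windows in regions found in the MEF list alone. For the ETS motif CCGGAAGT the shares were 2.62% in members, 9.08% in regions of all 4 lists and 3.89% of all windows. The Esrrb motif TCAAGGTCA (0.238 against 0.424%) and the Otx motif GGATTA (5 against 7.06%) were rarer in member windows than in all windows. The Sox motif ACAAAGG was more frequent (7.62 against 5.89%). Shares over so few windows rest on small counts.

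Most genes of the pluripotency network had a member linked to them by position. Of 36 such genes with a region, 28 had a linked member (77.8%), against 3699 of 18084 protein-coding genes (20.5%), while these genes had a median of 5 regions and genes at large 4. The list had 60 linked members, with median group means of 1.25 CPM in MEF, 23.8 at Stage 1, 27.2 at Stage 2 and 19.6 in iPSC. Among the later groups 41 of the 60 (68.3%) were never called, against 73.9% of tested members and 78.6% of all tested regions. Stage 2 against Stage 1 gave 5 higher and 2 lower (8.33 and 3.33%, background 4.94 and 5.43%), with a median log2 fold change of 0.22, against 0.02 over all members. For iPSC against Stage 2 there were 0 higher and 5 lower (8.33%, background 0.404 and 1.80%), with a median of -0.41, against -0.16 over all members. Between iPSC and Stage 1 there were 2 higher in iPSC and 12 lower (3.33 and 20%, background 5.91 and 10.9%), with a median of -0.21, against -0.13. Regions of all 4 lists had 1.16% higher and 23.8% lower in that comparison, with a median of -0.34. In iPSC against Stage 2 they had 0.189% higher and 2.94% lower, with a median of -0.17.

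The member on the Nanog promoter, chr6:122706951-122707750, had 1.29, 1.09 and 0.933 CPM in MEF, 37.5, 27.1 and 45.3 at Stage 1, 36.7, 31.5 and 27.8 at Stage 2, and 24.7, 21.8 and 21.7 in iPSC. All iPSC libraries lay below all Stage 1 and Stage 2 libraries. It was lower in iPSC than at Stage 1 by edgeR (log2 fold change -0.71 ± 0.23 SE, adjusted p = 0.0243), a call lost in 7 of 20 other fits, among them those without Stage 1 replicate 3 or without any 1 of the iPSC libraries. Of the 4 regions linked to Nanog this was the only member.

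Zfp42 also had 1 member of 3 regions, on its promoter at chr8:43306751-43307500, with 0.970, 1.09 and 2.18 CPM in MEF, 24.4, 36.8 and 36.8 at Stage 1, 48.9, 56 and 41.3 at Stage 2, and 44.3, 43.6 and 24.4 in iPSC. Every Stage 2 library stood above every Stage 1 library while iPSC overlapped both, and no comparison among later groups was called. Dppa3, a maternal-effect gene of germ cells and naive pluripotent cells, had 2 members of 5 regions. The higher of them, at chr6:122624351-122625000, had 22.3 to 33.2 CPM at Stage 1, 25.6 to 32.2 at Stage 2 and 23.9 to 26.2 in iPSC, and was not called.

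Of the core factors, Pou5f1 (Oct4) had 1 member of 6 regions, at chr17:35509251-35509850. It lay 444 bp from the nearest start listed for the gene, which need not be its main promoter. Its CPM were 2.26, 1.64 and 2.80 in MEF, 17.4, 14.5 and 12 at Stage 1, 17.7, 18.7 and 22.1 at Stage 2, and 14.5, 14 and 14.5 in iPSC. Every Stage 2 library stood above every library of the other groups, yet no comparison among later groups was called. Sox2 had 1 member of 4 regions, at chr3:34653701-34654250, with 9.20 to 15.7 CPM at Stage 1, 13.5 to 19.9 at Stage 2 and 10.9 to 15.2 in iPSC, also not called. A run of 4 members farther along the chromosome, at chr3:34745051-34761750, lies where a distal control region of Sox2 is known in mouse embryonic stem cells. Summed over the 4, it had 4.38 ± 1.06 CPM in MEF, 115.9 ± 1.27 at Stage 1, 134.6 ± 21.0 at Stage 2 and 97.2 ± 3.44 in iPSC (SD, n = 3 each).

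Esrrb, an orphan nuclear receptor of the network, had 5 members of 20 regions. The highest, in the gene's span at chr12:86501401-86502350, had 57.5, 42.6 and 44.6 CPM at Stage 1, 61.8, 66.9 and 57.7 at Stage 2, and 43.5, 38.9 and 32.6 in iPSC. All Stage 2 libraries stood above all iPSC and Stage 1 libraries. It was lower in iPSC than at Stage 2 (edgeR log2 fold change -0.69 ± 0.18, adjusted p = 0.0242), a call lost in 8 of 20 other fits, among them those without Stage 2 replicate 1 or 2 and without any 1 of the iPSC libraries. Tfcp2l1, a CP2-family factor of naive cells, had 4 members that held 12.6 to 70 CPM in single Stage 1 libraries.

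Tet2, which codes for a dioxygenase that oxidises methylated cytosine, had a member that was lower at Stage 2 and in iPSC than at Stage 1. At chr3:133524301-133525300 it had 1.13, 1.09 and 1.55 CPM in MEF, 106, 94.9 and 89.8 at Stage 1, 49.5, 37.9 and 35.6 at Stage 2, and 31.2, 23.3 and 23.5 in iPSC. No 2 groups overlapped. edgeR gave a log2 fold change of -1.23 for Stage 2 against Stage 1 (adjusted p = 8.47e-08) and -1.88 for iPSC against Stage 1 (adjusted p = 7.42e-13), and both held in all 20 other fits. A second Tet2 member, at chr3:133533201-133534600, had 81.9 to 110 CPM at Stage 1, 73.3 to 88.1 at Stage 2 and 53.4 to 64.6 in iPSC, and was lower in iPSC than at Stage 1 (log2 fold change -0.70, adjusted p = 0.00151).

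Fgf4, an autocrine growth factor of pluripotent cells and a known target of Oct4 and Sox2, had 4 members among 5 regions. The highest, at chr7:144864101-144864850, had 0.970, 0.729 and 0.933 CPM in MEF, 39.2, 33.9 and 34.7 at Stage 1, 30, 27 and 29.2 at Stage 2, and 21.8, 15.6 and 18.1 in iPSC. The 4 groups did not overlap, and iPSC was lower than Stage 1 (edgeR log2 fold change -0.95 ± 0.24, adjusted p = 0.00284) in every fit. Tdh, which codes for the threonine dehydrogenase on which mouse embryonic stem cells depend, had a member at chr14:63500001-63500900 with 57.5, 55.2 and 56.6 CPM at Stage 1, 39.1, 31.5 and 37.7 at Stage 2, and 26.1, 17.9 and 20.8 in iPSC. It fell in iPSC against Stage 1 (log2 fold change -1.38, adjusted p = 8.19e-07 by edgeR), with no overlap between groups.

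Sall4, a zinc finger factor of the network, had 3 members of 6 regions, of which the one on its promoter, chr2:168766701-168767500, had 25.3, 23.2 and 31.1 CPM at Stage 1, 17.7, 16.7 and 15.7 at Stage 2, and 14.5, 12.4 and 12.7 in iPSC. It was lower in iPSC than at Stage 1 (edgeR log2 fold change -1.01 ± 0.28, adjusted p = 0.00651), a call lost without Stage 1 replicate 3. The Klf5 member at chr14:99320601-99321200 moved the other way, with 6.97, 9.68 and 7.78 CPM at Stage 1, 22, 14.2 and 17.8 at Stage 2, and 18.9, 19.4 and 17.2 in iPSC. It was higher in iPSC than at Stage 1 (edgeR log2 fold change 1.19 ± 0.37, adjusted p = 0.014), which was lost without Stage 1 replicate 1 or 3 or iPSC replicate 2 and with whole-library scaling, and no library of Stage 2 or iPSC overlapped Stage 1. Klf5 codes for a Krüppel-like factor that acts in naive cells.

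L1td1 had 4 members around its start. The promoter member printed above, chr4:98726401-98727000, held 0.970 to 1.46 CPM in MEF, 27.6 to 30.5 at Stage 1, 29.9 to 33 at Stage 2 and 23.9 to 29 in iPSC and was not called among later groups. The Pipox promoter member, chr11:77893651-77894400, averaged 2.09 ± 0.234 CPM in MEF, 38.6 ± 9.11 at Stage 1, 32.8 ± 4.76 at Stage 2 and 19.8 ± 1.52 in iPSC (SD, n = 3 each), and was lower in iPSC than at Stage 1 (edgeR log2 fold change -0.97, adjusted p = 0.00175). Among other network genes Tdgf1 (Cripto, a Nodal co-receptor) had 1 member of 7 regions, Tet1 1 of 8 and Prdm14 1 of 4, none of them called, and Nr0b1 and Lin28a had no member among 3 and 4 regions.

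**Figure D4:**
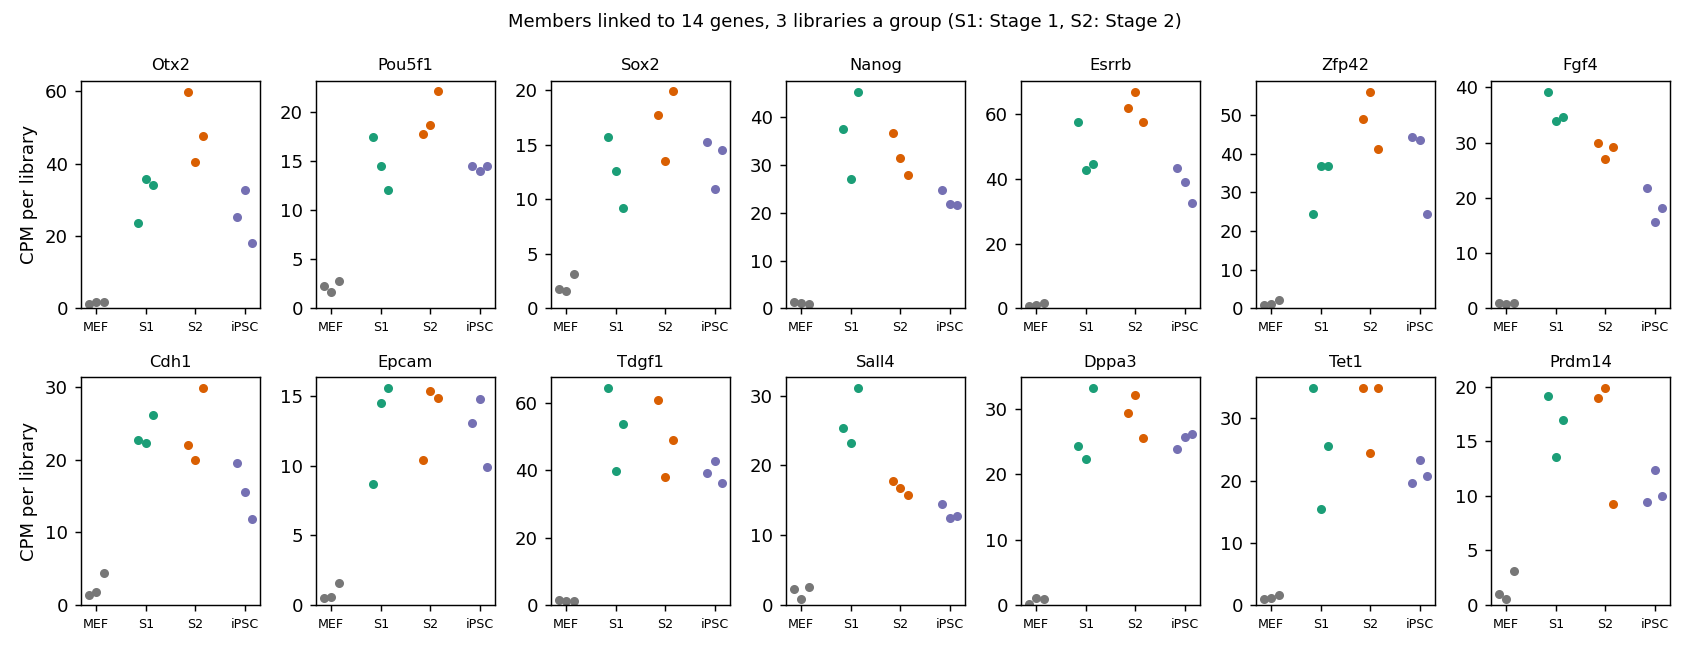
CPM per library (points, 3 per group, own y axis from 0 in each panel) for the highest member linked to each of 14 genes. In the Nanog panel the 3 iPSC points, at 21.7 to 24.7 CPM, lie below the Stage 1 and Stage 2 points, and in the Otx2 panel the Stage 2 points, at 40.5 to 59.9 CPM, lie above the other groups.

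Of 22 primed epiblast genes with a region 8 had a member, 1 each. At Stage 2 against Stage 1, 3 were called higher (37.5%, background 4.94%) and none lower (background 5.43%). In iPSC against Stage 2, 1 was called lower (12.5%, background 1.80%). Shares over 8 members rest on small counts. Otx2, a homeodomain factor of the primed epiblast, had 1 member at chr14:48654451-48655450 with 1.13, 1.82 and 1.87 CPM in MEF, 23.5, 35.8 and 34 at Stage 1, 59.9, 40.5 and 47.7 at Stage 2, and 25.4, 32.7 and 18.1 in iPSC. Stage 2 overlapped no other group. It was higher at Stage 2 than at Stage 1 (edgeR log2 fold change 0.67 ± 0.21, adjusted p = 0.0232), a call lost without Stage 1 replicate 1 or 3 or Stage 2 replicate 1 or 3, with whole-library scaling and with DESeq2. It was lower in iPSC than at Stage 2 (log2 fold change -0.95 ± 0.21, adjusted p = 0.00571), lost without Stage 2 replicate 1 or iPSC replicate 3 and with whole-library scaling.

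Lefty1, which codes for a secreted inhibitor of Nodal, had a member at chr1:180924551-180925300 with 0.647, 1.28 and 1.24 CPM in MEF, 13.1, 8.71 and 11.3 at Stage 1, 31.8, 29.6 and 27.8 at Stage 2, and 37, 32.7 and 29.9 in iPSC. Stage 2 and iPSC overlapped and both stood above Stage 1. By edgeR it was higher in iPSC than at Stage 1 (log2 fold change 1.58, adjusted p = 1.12e-05) and at Stage 2 than at Stage 1 (1.42, adjusted p = 0.000114, lost with whole-library scaling). The Fgf5 member, near the gene of an epiblast growth factor, rose at Stage 2 against Stage 1 as well (log2 fold change 1.15, adjusted p = 0.00112, lost without Stage 2 replicate 1 and with whole-library scaling), with 28.3 CPM at the median Stage 2 library and 15.5 at the median Stage 1 library.

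Epithelial genes were next in frequency: 17 of 30 (56.7%) had a member, 27 members in all. Of these 22 (81.5%) were never called among later groups, against 73.9% of tested members, and 14 lay within 1 kb of a gene start. Cdh1, the E-cadherin gene, had 2 members of 13 regions. The member at its start, chr8:106603001-106603650, had 1.29, 1.82 and 4.35 CPM in MEF, 22.7, 22.3 and 26.2 at Stage 1, 22, 19.9 and 29.9 at Stage 2, and 19.6, 15.6 and 11.8 in iPSC. The iPSC libraries were the lowest of the later ones, but no comparison was called. Both regions of Epcam, the gene of an epithelial adhesion molecule, were members, at 8.72 to 15.6 CPM at Stage 1, 10.4 to 16.1 at Stage 2 and 8.71 to 14.8 in iPSC, and neither was called.

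The Cldn3 promoter, chr5:134985501-134986400, had 4.04, 3.28 and 5.29 CPM in MEF, 66.3, 40.7 and 39.6 at Stage 1, 37.9, 47 and 43.4 at Stage 2, and 29.7, 25.7 and 20.8 in iPSC. The iPSC libraries lay below all Stage 1 and Stage 2 libraries, and edgeR called iPSC lower than Stage 1 (log2 fold change -0.92 ± 0.22, adjusted p = 0.00127), which was lost without Stage 1 replicate 1. The promoter of Esrp1, a splicing regulator of epithelial cells, had 43.6, 36.8 and 40.3 CPM at Stage 1, 34.9, 34.1 and 36.3 at Stage 2, and 25.4, 17.1 and 14.5 in iPSC, and was lower in iPSC than at Stage 1 (log2 fold change -1.06, adjusted p = 0.000559). Spint1, which codes for a membrane-bound protease inhibitor of epithelia, had a promoter member that rose at Stage 2 against Stage 1 (log2 fold change 1.10, adjusted p = 0.00155, lost with whole-library scaling). Tjp1, the gene of the junction protein ZO-1, had its highest member at 21.8 to 31.1 CPM at Stage 1, 26.3 to 32.4 at Stage 2 and 34.4 to 42.1 in iPSC, not called in any comparison.

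Of 30 mesenchymal and fibroblast genes 4 had a member (13.3%), with 5 members in all. None was called among later groups, as was the case for 73.9% of tested members and 78.6% of all tested regions. The 2 highest were near Fn1, the fibronectin gene, where chr1:71645851-71646550 had 1.13 to 2.00 CPM in MEF, 26.1 to 41 at Stage 1, 27.7 to 39.7 at Stage 2 and 26.8 to 28.8 in iPSC. Further lists stood nearer to the 20.5% of genes at large: 6 of 25 AP-1 and other somatic factor genes, 6 of 24 genes of the Nodal, BMP and TGF-beta pathways, 4 of 20 LIF and FGF signalling genes, 4 of 17 primitive endoderm genes, 3 of 14 trophectoderm genes and 4 of 17 blood and endothelium genes. Neural ectoderm genes had 9 of 22 (40.9%) and germline genes 7 of 19 (36.8%), not below the 36.4% of primed epiblast genes. Wnt genes had 6 of 21, chromatin genes 7 of 25 and mesoderm genes 2 of 18. Of the 9 neural ectoderm members 2 were called higher in iPSC than at Stage 1 (22.2%, background 5.91%) and 0 lower (background 10.9%), on small counts.

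Some members of these lists were called with large changes. Id3, a BMP target that codes for an inhibitor of helix-loop-helix factors, had a member at chr4:136146551-136147250 with 5.34, 8.56 and 8.08 CPM in MEF, 47.9, 35.8 and 42.4 at Stage 1, 28.7, 21.9 and 25.6 at Stage 2, and 9.43, 13.2 and 9.95 in iPSC. The groups did not overlap, and iPSC was lower than Stage 1 in every fit (edgeR log2 fold change -1.95 ± 0.26, adjusted p = 2.49e-08). In iPSC this member stood near its MEF level and was not called higher than in MEF (edgeR log2 fold change 0.60 ± 0.30, adjusted p = 0.0588). A member inside Tead1, a Hippo pathway factor, at chr7:112690851-112691900 had 57.1 to 73.2 CPM at Stage 1, 49.5 to 59.9 at Stage 2 and 38.5 to 45.1 in iPSC, lower in iPSC than at Stage 1 (log2 fold change -0.68, adjusted p = 0.00632). Tet3, another Tet gene, and Tbx20, a cardiac factor, each had a member lower in iPSC than at Stage 1 (log2 fold changes -1.18 and -1.08, adjusted p = 0.000873 and 0.0033), the Tbx20 call lost without Stage 1 replicate 3.

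No member of the LIF and FGF signalling list was called among later groups. Most regions were not called there: 73.9% of tested members and 78.6% of all tested regions. Il6st, which codes for gp130 of the LIF receptor, had a member at chr13:112462201-112462950 with 42.7, 25.2 and 25.5 CPM at Stage 1, 47.1, 34.1 and 25.6 at Stage 2, and 34.1, 34.2 and 25.3 in iPSC, and Lifr had one at 12.2 to 31, 23.5 to 33.4 and 12.7 to 29.6 CPM in the same order. The later groups overlapped at both, and the list had 7 members in all. A member near Fzd5, a Wnt receptor gene, had 41.6 to 45.3 CPM at Stage 1, 40.6 to 45.9 at Stage 2 and 31.9 to 37.1 in iPSC and was not called either. Sox17, an endoderm factor, had 25.3 to 43.9 CPM at Stage 1, 45 to 52.6 at Stage 2 and 31.9 to 45.9 in iPSC at its highest member, also without a call.

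Under the rule for named members, the largest rise at Stage 2 against Stage 1 was near Lef1, which codes for a Wnt-responsive HMG factor. Its member at chr3:131102051-131102750 had 0.485, 0.547 and 1.87 CPM in MEF, 4.36, 8.71 and 12 at Stage 1, 43.4, 50.8 and 40.6 at Stage 2, and 19.6, 18.7 and 19.9 in iPSC. The 4 groups did not overlap, and Stage 2 stood highest. edgeR gave log2 fold changes of 2.38 ± 0.28 for Stage 2 against Stage 1 (adjusted p = 4.94e-10) and -1.21 ± 0.24 for iPSC against Stage 2 (adjusted p = 0.00125), both kept in all 20 other fits, and 1.17 for iPSC against Stage 1 (adjusted p = 0.00736, lost without Stage 1 replicate 1 and with whole-library scaling).

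A member in Mybl2, a cell cycle factor of the Myb family, at chr2:163074951-163075700 followed the same course, with 7.85, 10.6 and 12 CPM at Stage 1, 50.1, 44.4 and 34.2 at Stage 2, and 19.6, 25.7 and 17.2 in iPSC. Stage 2 was higher than Stage 1 in every fit (edgeR log2 fold change 2.06, adjusted p = 1.19e-08), and iPSC was lower than Stage 2 (-1.04, adjusted p = 0.005, lost without Stage 2 replicate 1 or iPSC replicate 1 or 3 and with whole-library scaling). The other large rises were at the start of Zfp936, a zinc finger gene (log2 fold change 2.10, adjusted p = 4.63e-08), and near Prelid2 and Unc5c, a netrin receptor gene (2.12 and 2.01, adjusted p = 1.43e-05 and 1.01e-05).

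Largest among the falls at Stage 2 under the same rule was the member 1783 bp from the start of Anxa3, an annexin gene, at chr5:96847751-96848550. It had 2.75, 3.83 and 3.42 CPM in MEF, 39.2, 61 and 43.1 at Stage 1, 11.6, 9.65 and 12.8 at Stage 2, and 10.9 in each iPSC library. Stage 1 stood above both later groups, and the log2 fold changes were -2.06 ± 0.25 for Stage 2 against Stage 1 (edgeR adjusted p = 2.1e-09) and -2.12 ± 0.27 for iPSC against Stage 1 (adjusted p = 2.14e-09). A member in Pcsk2, a prohormone convertase gene, had 61.9, 64.9 and 74.3 CPM at Stage 1, 18.3, 21.2 and 16.4 at Stage 2, and 21.8, 24.1 and 19 in iPSC (log2 fold change -1.84 at Stage 2 against Stage 1, adjusted p = 9.62e-11). Members in Tmem117, Ccdc7b and Aamdc made up the rest of the 5 falls that the rule names, between -2.04 and -1.70.

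Between iPSC and Stage 2 only 21 members were higher in iPSC. Under the same rule, which takes gene-linked members only, the largest of these was 5227 bp from the start of Rasgrp1, a Ras exchange factor gene, at chr2:117336801-117337650, with 31.2, 35 and 38.9 CPM in iPSC and 11.6, 10.3 and 14.9 at Stage 2. Stage 1 had 22.7, 21.3 and 24.8 CPM, between the other groups. The edgeR log2 fold change was 1.51 ± 0.26 (adjusted p = 0.000215) and held in every fit. A member near Crb1, an apical polarity gene, had 20, 28.1 and 38.9 CPM at Stage 1, 12.8, 16.7 and 12.1 at Stage 2, and 26.1, 30.3 and 35.3 in iPSC (iPSC against Stage 2 log2 fold change 1.12, adjusted p = 0.00904, lost without Stage 2 replicate 1 or iPSC replicate 3 and with whole-library scaling).

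The falls that the rule names in iPSC against Stage 2 included those near Cdh19, a cadherin gene, with 4.35, 8.56 and 5.43 CPM in iPSC and 29.4, 23.8 and 20.6 at Stage 2 (edgeR log2 fold change -2.01 ± 0.33, adjusted p = 0.000133), and in Prex2, a Rac exchange factor gene, with 16, 12.4 and 9.95 CPM in iPSC and 48.3, 39.2 and 32.7 at Stage 2 (-1.63 ± 0.25, adjusted p = 5.66e-05). No libraries overlapped at either, and both calls held in every fit. Members linked to Slc10a7 and Rbmxl1, to Rttn and to Malrd1 had log2 fold changes of -1.81, -1.65 and -1.51.

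Over the whole span from Stage 1 to iPSC the largest fall named was 9371 bp from the start of Ddx18, an RNA helicase gene, at chr1:121577351-121578000, with 2.90, 5.45 and 4.52 CPM in iPSC, against 22.7, 28.1 and 23.3 at Stage 1. Stage 2 lay between, at 8.36 to 11.6 CPM, and the log2 fold change was -2.51 ± 0.39 (edgeR adjusted p = 7.02e-07). Members of Clec4a4 and St8sia6 fell by 2.14 and 2.03 on the log2 scale. Gene-linked rises were led by the Unc5c member, with 29, 36.6 and 23.5 CPM in iPSC and 1.74, 8.71 and 8.49 at Stage 1 (log2 fold change 2.22, adjusted p = 7.52e-07), and by members of Pak3, Foxn3 and Ildr1 (1.81, 1.80 and 1.80). At the Foxn3 member, in a forkhead gene, all iPSC libraries (36.3, 55.2 and 43.4 CPM) and Stage 2 libraries (44.6, 37.9 and 37) lay above Stage 1 (11.3, 17.4 and 10.6).

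The members with the highest CPM over the later libraries were a mixed group. Of the 10 highest, 5 lay in Sfi1, a centrosome gene with near-identical copies on which reads cannot be placed with certainty, and they also had 9.86 to 47.9 CPM in MEF libraries. Among the others was a member linked to Gm20783 and LOC108167320 at chr9:124439251-124440800, with 139, 124 and 129 CPM at Stage 1, 120, 109 and 107 at Stage 2, and 57.3, 50.6 and 45.2 in iPSC. It was lower in iPSC than at Stage 2 (edgeR log2 fold change -1.13, adjusted p = 1.24e-05) and than at Stage 1 (-1.35, adjusted p = 1.4e-09). A member near Vmn2r85, a vomeronasal receptor gene, had 139, 140 and 115 CPM at Stage 1, 82.5, 99.7 and 72.6 at Stage 2, and 54.4, 62.2 and 41.6 in iPSC, with a log2 fold change of -1.30 in iPSC against Stage 1 (adjusted p = 7.91e-09). Among the genes with many members were Ptprn2 with 9 of 28 regions, Pde4d with 8 of 104 and Rabgap1l with 8 of 47, all of them long genes. Of all regions 5.87% were members.

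Members came in runs less often than singly. With neighbours at most 12.5 kb apart, 582 runs of 2 or more held 1283 members (19.0%), and only 3 runs had 5 or more. A run of 9 covered Zfp978 and Zfp982 on chromosome 4 and a run of 5 covered Sfi1 on chromosome 11, both in copies of repeated genes. Another run of 9 was the stretch of the miR-290 cluster.

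The miR-290 cluster on chromosome 7 and the miR-302 cluster on chromosome 3 were chosen for description after their values were seen. The table used holds 26 mature sequences of these clusters, with 16 different seeds (bases 2 to 8). The 5 that share the seed AAGUGCU, in capitals here, are shown because both clusters hold this seed (RefSeq, GRCm38.p6). These sequences lie between members and not inside them, so their link to members is by position only.
miR-302b-3p: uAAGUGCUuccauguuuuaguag
miR-302d-3p: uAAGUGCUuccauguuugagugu
miR-291a-3p: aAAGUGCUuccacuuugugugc
miR-294-3p: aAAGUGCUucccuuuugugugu
miR-295-3p: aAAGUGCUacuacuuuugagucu

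The hairpins of the miR-290 cluster span chr7:3218626-3220841, and 9 members lay between chr7:3193001 and chr7:3222350. Their summed CPM were 8.73, 11.8 and 18.7 in MEF, 313.8, 317.5 and 345.9 at Stage 1, 366.3, 339.6 and 286.2 at Stage 2, and 231.5, 237.3 and 176.5 in iPSC. All iPSC libraries stood below all Stage 1 and Stage 2 libraries, and these last 2 groups overlapped. The highest member, chr7:3221101-3222350, which starts 2475 bases past the first hairpin base, had 69.7, 97.8 and 96.9 CPM at Stage 1, 64.2, 51.5 and 50.5 at Stage 2, and 52.2, 52.1 and 17.2 in iPSC. edgeR called it lower in iPSC than at Stage 1 (log2 fold change -1.09 ± 0.20, adjusted p = 3.16e-05) and at Stage 2 than at Stage 1 (-0.67 ± 0.19, adjusted p = 0.0101), the second call lost without Stage 1 replicate 2 or 3 or Stage 2 replicate 2 or 3 and with DESeq2.

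Upstream of the hairpins, the members at chr7:3201001-3201850 and chr7:3203751-3204600 were lower in iPSC than at Stage 2 (edgeR log2 fold changes -0.96 and -1.14, adjusted p = 0.00405 and 0.00129), both lost without Stage 2 replicate 1 and the first also without iPSC replicate 2. Their CPM were 22.6 to 30.8 and 17.2 to 24.1 in iPSC, against 43.4 to 62.4 and 38.4 to 52.6 at Stage 2. The 2 most distant, about 25 kb before the hairpins, had 13.6 to 20.2 CPM in iPSC and 10.6 to 18.4 at Stage 1 and were not called.

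The 2 members at the miR-302 cluster, chr3:127544501-127545250 and chr3:127547801-127548350, summed to 2.54 ± 0.0504 CPM in MEF, 41.2 ± 2.09 at Stage 1, 37.2 ± 0.524 at Stage 2 and 25.4 ± 4.52 in iPSC (SD, n = 3 each). Here too every iPSC library, at 21.7 to 30.5 CPM, lay below every Stage 1 and Stage 2 library, while neither member alone was called. Over all microRNA genes, 49 of 1005 hairpins had a member within 5 kb, 42 members in all.

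**Figure D5:**
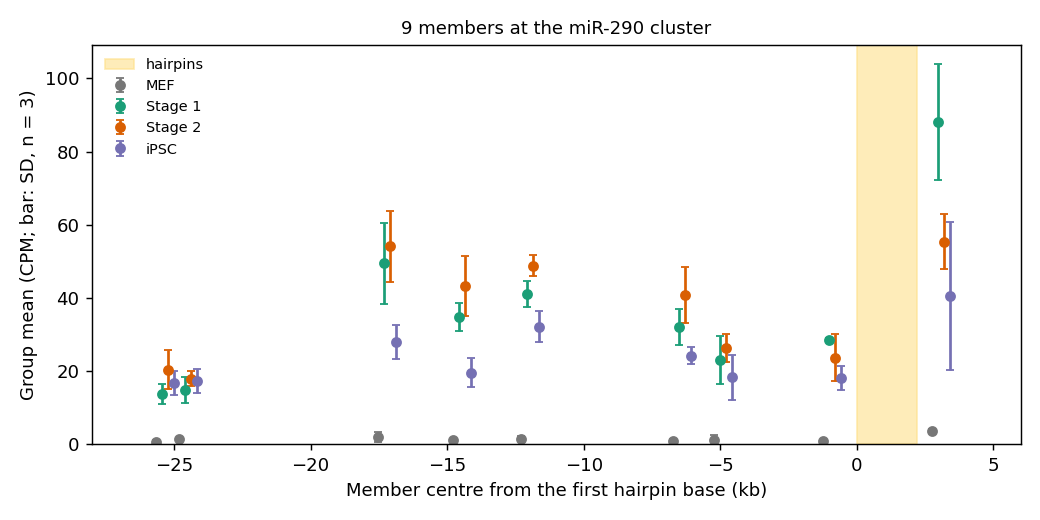
Mean CPM with SD (3 libraries per group) of the 9 members of the miR-290 stretch (y) by the distance of their centre from the first hairpin base (x, kb), with the hairpins shaded. MEF values lie near 0 at every member, and the member at 3.1 kb has 88.1 CPM at Stage 1, 55.4 at Stage 2 and 40.5 in iPSC.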

How the data were processed

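The authors deposited a count of reads per region and library for a common set of 115000 regions, and an interval list for each of the 4 stages. The submitters' processing notes name, without role or order, the build mm10 and the tools DESeq2 1.12.4, HTSeq 0.5.4p3, SAMtools 0.1.19, Picard 2.6.0 and Bowtie2 2.2.6. The sources used here do not give how peaks were called, duplicates treated or read ends shifted.

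Reads outside every region (77.9 to 95.5% of a library) and ambiguous reads entered neither the library sizes nor the tests. Counts were tested with edgeR 4.0.16 under R 4.3.3 (robust quasi-likelihood F tests) in 1 model of the 4 groups, TMM scaling over all regions and filterByExpr (minimum count 10, minimum total 15), which left 71069 regions. An adjusted p (Benjamini-Hochberg, over all tested regions) under 0.05 was called, and the procedure was tested on simulated data. Errors beside log2 fold changes are standard errors. Exact permutation tests over libraries were two-sided. Alternatives were DESeq2 1.42.0, other scalings and filters, a replicate block, thinning, a stricter membership rule, fits of only the 2 groups compared, and each library left out. The labels do not tie replicates to separate animals or cultures. The p-values therefore reflect only how far these samples spread, and that spread may be technical.

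Genes were linked to a member by their span and 10 kb on either side (protein-coding genes, GRCm38.p6). Gene starts were taken from RefSeq promoter windows for the 79.9% of genes with a strand there and from either end for the others. Sequences are from RefSeq, GRCm38.p6. The members, gene lists and the rule for named genes were chosen with earlier results of these data known. The rule named gene-linked members: the 10 with the highest CPM, the 5 largest called rises and falls of each later comparison without overlap and with mean log2 CPM of at least 2, the 2 highest of each list, the 10 genes with most members and the members of 16 fixed genes. Further members of the lists, the promoter and microRNA examples, Tdh, Klf5, Fgf5, Esrp1, Spint1, Tfcp2l1 and Pipox were named after their values were seen.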

Additional observations from a re-analysis of the deposited data

How the results depend on the processing

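Counts of called members moved with the scaling, the tool and the libraries left out. Against MEF, whole-library scaling gave 7 members lower at Stage 2 and 13 lower in iPSC, against 0 in each with TMM. Beside the splits by scaling and by DESeq2 given with the results (whole-library 65 higher at Stage 2 against Stage 1, 1 and 95 in iPSC against Stage 2, 31 and 1788 in iPSC against Stage 1, TMM on tested regions 34 and 177, and 558 and 574 for the last 2, DESeq2 294 and 173, 7 and 100 of 4263 tested, and 446 lower in iPSC against Stage 1), fits of only the 2 groups compared gave 652 members lower at Stage 2 than at Stage 1 and 81 higher and 553 lower in iPSC than at Stage 2. Leaving out 1 library gave 256 to 667 higher and 188 to 547 lower at Stage 2 against Stage 1, 4 to 45 and 45 to 438 in iPSC against Stage 2, and 191 to 406 and 539 to 1006 in iPSC against Stage 1. Besides Stage 2 replicate 1, the libraries whose removal moved counts by over 1.5 times were these. At Stage 2 against Stage 1, it gave 312 higher without Stage 1 replicate 1, 361 and 268 without Stage 1 replicate 2, 337 and 188 without Stage 1 replicate 3, 322 and 270 without Stage 2 replicate 2, and 249 lower without Stage 2 replicate 3. In iPSC against Stage 2, it gave 45 and 438 without MEF replicate 1, 32 higher without MEF replicate 3, 8 and 158 without Stage 2 replicate 2, 8 higher without Stage 2 replicate 3, and 5 and 110, 4 and 141, and 11 and 73 without iPSC replicates 1, 2 and 3. In iPSC against Stage 1, it gave 191 higher without Stage 1 replicate 1, 539 lower without Stage 1 replicate 3, and 226 and 211 higher without iPSC replicates 1 and 2. The stricter membership rule kept 5428 members with 257 higher and 632 lower in iPSC than at Stage 1, and leaving out 12 members in gene copies gave 339 and 873.

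With the replicate block, 512 members were higher and 402 lower at Stage 2 than at Stage 1, 16 and 273 in iPSC against Stage 2, and 313 and 854 in iPSC against Stage 1. The numbers do not pair the libraries: deviations of same-numbered libraries correlated at -0.0333 to 0.0505 over 18 pairs, and those of other pairs at -0.0562 to 0.0451 over 36, and 3 of 12 libraries correlated best with a library of their own number.

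Of 9 comparisons of per-library values, 4 of 102 alternative values turned direction: the member share of iPSC minus that of Stage 2 (0.0297 percentage points with background subtracted, -1.04 without) and minus that of Stage 1 (2.45, against -0.416), the near-to-far ratio of iPSC minus Stage 1 (-0.0316 within 5 kb, against 0.0159), and the ratio to regions of all 4 lists of iPSC minus Stage 2 (-0.0222 to 0.00388 with 1 library left out and the highest without Stage 2 replicate 1, against -0.0114). With 3 libraries a group no such difference can pass the threshold, and the cause was not tested. Of 121 calls at named members among later groups, 59 held in all 20 other fits, 31 were lost with whole-library scaling, 37 with DESeq2, 7 with the replicate block and 59 with at least 1 library left out, and 0 turned direction. Depth limits members at low CPM: 1 read was worth 0.162 to 0.968 CPM.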

Other observations

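The data also hold 165 members on the X chromosome. In Stage 2 against Stage 1, 16 were higher and 5 lower (9.70 and 3.03%, against 4.94 and 5.43% of all tested regions), with a median log2 fold change of 0.06, against 0.02 over all members. In iPSC against Stage 2, edgeR called 0 higher and 15 lower (9.09%, against 0.404 and 1.80% of all tested regions), with a median of -0.38, against -0.16. In iPSC against Stage 1, 5 were higher and 27 lower (3.03 and 16.4%, against 5.91 and 10.9%), with a median of -0.32, against -0.13. X-linked members made up 1.60 to 1.97% of the member reads in MEF, 2.07 to 2.16% at Stage 1, 2.13 to 2.28% at Stage 2 and 1.88 to 1.97% in iPSC. The X share of reads in regions of all 4 lists was 2.14 to 2.29% at Stage 1, 2.18 to 2.35% at Stage 2 and 2.00 to 2.14% in iPSC. The difference between X-linked and other members was not tested.

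Several of the stretches with runs of members have no protein-coding gene within reach. A run of 4 at chr14:105851201-105862600 summed to 3.32 ± 1.06 CPM in MEF, 187.8 ± 11.2 at Stage 1, 169.3 ± 47.8 at Stage 2 and 138.5 ± 22.3 in iPSC (SD, n = 3 each), and 1 at chr10:99460001-99473250 to 4.79 ± 1.24, 114.4 ± 16.6, 108.5 ± 23.7 and 89.3 ± 9.94 in the same order.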
